A study of Homo sapiens with 6 samples.

Results

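The genes described here encode secreted signalling proteins: the chemokines CCL5, CCL2, CXCL1 and CXCL2, the cytokines IL6, IL11, LIF, IL18 and CSF1, and the stress-induced factor GDF15. They are 10 of the 19977 gene symbols of the table and all 10 were found in it. They were chosen by name as proteins that an osteosarcoma cell can secrete, around CCL5, which was chosen by its difference between the same siNUDT5 and siCtrl libraries. Their values in that contrast are therefore given as a description, with log2 changes and standard errors and no p-value, and counts of those past the threshold of the fit over all genes describe them and support nothing. RNA came from U2OS cells, an established human osteosarcoma line, recovered for 48 hours after siRNA transfection and otherwise untreated. The 3 siCtrl libraries carry a non-targeting control siRNA and the 3 siNUDT5 libraries an siRNA against NUDT5, a hydrolase that cleaves ADP-ribose. The labels describe 1 cell line and name no second siRNA, and nothing in them says that the 3 libraries of a group came from separate cultures, so a p-value here speaks of library-to-library spread, which could be technical. The comparison asks how the RNA of each gene differs when NUDT5 is lowered.

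Chemokines are small secreted proteins that draw white blood cells along a gradient by binding receptors on their surface. CCL5 and CCL2 attract T cells and monocytes, and CXCL1 and CXCL2 attract neutrophils. IL6, IL11 and LIF belong to a family that signals through the shared receptor chain IL6ST (also called gp130), the JAK kinases and STAT3. SOCS3 is an induced brake of this signalling. Many of these genes are switched on by NF-kappaB, AP-1 or interferon regulatory factors, and many of their mRNAs are short-lived because AU-rich elements in the 3' UTR recruit decay factors.

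NUDT5 read 46.2, 49.0 and 52.0 TPM in the siCtrl libraries and 3.04, 2.74 and 2.67 TPM in the siNUDT5 libraries. TPM gives a gene's share of all transcripts in a library, corrected for transcript length. The fall was -3.71 on the log2(TPM + 1) scale (SE 0.0982, limma adjusted p = 1.32e-06), and an exact two-sided permutation test over the 6 libraries gave p = 0.1, the smallest it can give. Sequencing depth relative to siCtrl 1 ranged from 64.1% in siCtrl 2 to 118% in siNUDT5 2. The siCtrl 2 library stood apart: it differed from the other 2 siCtrl libraries by a median of 0.227 and 0.296 on the log2(TPM + 1) scale, against 0.0967 to 0.134 for the other within-group pairs. Of 8 mesenchymal and osteoblast markers, 6 were at 1 TPM or more in every library, among them VIM, COL1A1 and RUNX2, while COL1A2 and TWIST1 were near 0. Of 12 haematopoietic markers, CD3E, CD2, NKG7 and HBB were at 0 in all 6 libraries, and PTPRC, the pan-leukocyte surface protein, stayed between 0.0331 and 0.328 TPM. CD68, a lysosomal protein also used as a macrophage marker, rose from a mean of 6.997 to 14.9 TPM (limma adjusted p = 0.00348). The summed level of the other 11 was 1.75 to 3.42 TPM in siCtrl and 1.03 to 1.44 TPM in siNUDT5. Of these 11, 1 was at 1 TPM or more in every siCtrl library, the T-cell marker CD3D, which was not so in siNUDT5. Its values were worth 12, 4 and 6 reads in siCtrl and 3, 4 and 7 reads in siNUDT5. The log2 change of CD3D was -0.42, and its limma adjusted p was not under 0.05. Of 7 epithelial and endothelial markers in the table, the adhesion protein EPCAM fell from 9.89 to 5.39 TPM (limma adjusted p = 0.0271), and the sum of the 7 was 13.1 to 17.4 TPM in siCtrl and 10.6 to 10.9 TPM in siNUDT5. The part of these markers in the results was not tested.

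Of the 10 genes, 6 were on in siCtrl cells, meaning at 1 TPM or more in each of the 3 libraries: IL18, LIF, CCL2, CSF1, IL11 and GDF15. The same 6 were on in siNUDT5 cells, and CCL5 was added as the 7th. IL6 was low in both groups, CXCL2 was listed above 0 in 1 library and CXCL1 in none. Floors of 0.5 or 2 TPM gave the same counts of 6 and 7. In bulk RNA, fewer expressing cells and less RNA per cell cannot be told apart.

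The levels per transcript length spanned a wide range. IL18 lay at the 99.2 percentile of all symbols by mean TPM, LIF at 79.3 and CCL5 at 42.5. In siCtrl cells the order was IL18 (mean 848 TPM), LIF (41.2), CCL2 (9.81), CSF1 (6.98), IL11 (5.41), GDF15 (3.57), IL6 (0.572) and then CCL5 and CXCL2. The ranges over libraries of CSF1 and IL11 overlapped, as did those of IL11 and GDF15, so neither pair was ordered beyond its spread. In siNUDT5 cells CSF1 (10.7 TPM) and CCL2 (10.5 TPM) overlapped, and so did GDF15 (4.21 TPM) and CCL5 (3.80 TPM).

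**Figure D1:**
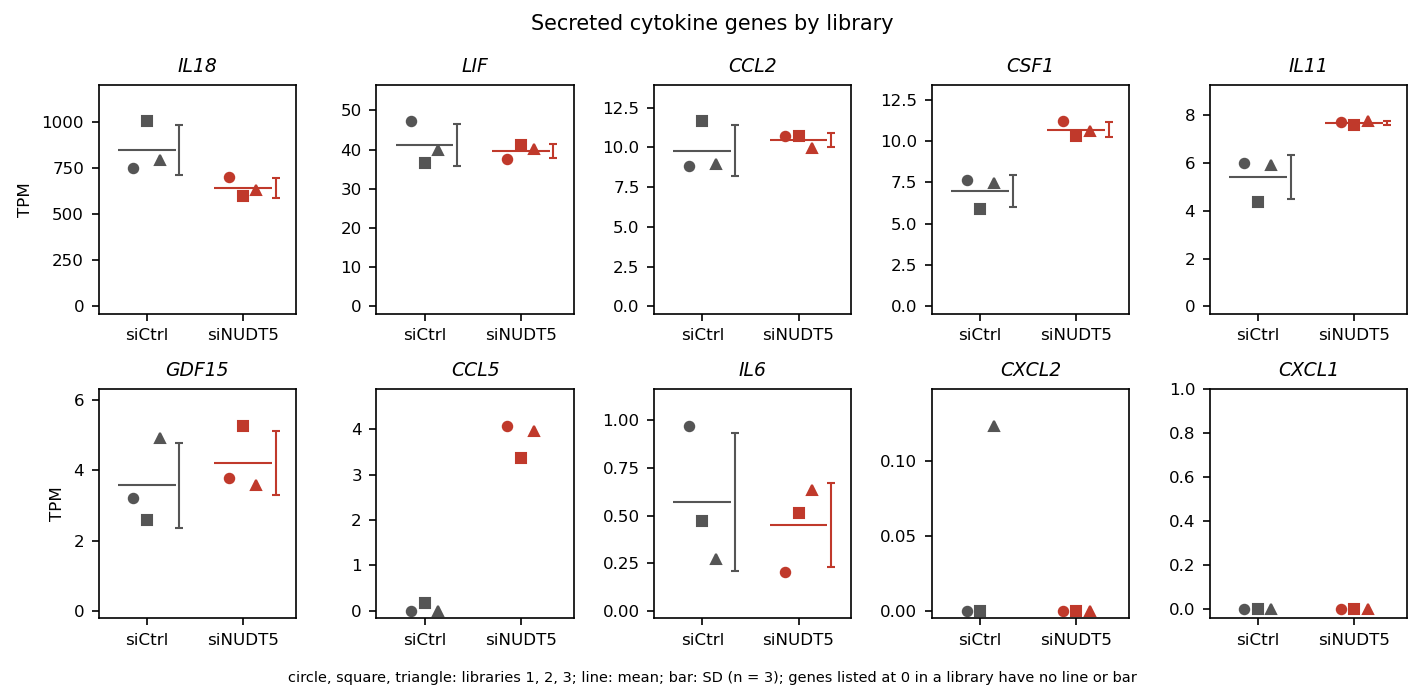
TPM of each of the 10 genes (one panel a gene, y axis in TPM, each panel with its own scale that includes 0) in the 3 siCtrl and 3 siNUDT5 libraries. Points are libraries, lines are means and bars are SDs (n = 3), left out for genes listed at 0 in a library. CCL5 is at 0, 0.167 and 0 TPM in siCtrl and at 3.36 TPM or more in siNUDT5, CSF1 and IL11 are higher in every siNUDT5 library, and IL18 is lower in each.

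CCL5 was listed at 0, 0.167 and 0 TPM in siCtrl 1, 2 and 3 and at 4.07, 3.36 and 3.96 TPM in siNUDT5 1, 2 and 3. The groups did not overlap, and 2 of 3 siCtrl libraries listed it at 0. The TPM values moved in steps that correspond to 0, 1 and 0 reads in siCtrl and 34, 37 and 39 reads in siNUDT5, if the smallest whole numbers that fit are the reads. Relative to depth, 110 against 1 read is a ratio of 97.0, which rests on 1 siCtrl read and so is poorly known. The ratio of mean TPM was 68.2. CCL5 was chosen by this difference, so both ratios describe it and test nothing. In the siCtrl libraries 3 reads would be worth 0.321, 0.502 and 0.287 TPM, so siCtrl cells may hold CCL5 RNA below those levels. The log2 change was 2.18 (SE 0.128) on the log2(TPM + 1) scale. That scale sets its size: it was 0.80 with 5 TPM added to each value and 4.81 with 0.1 TPM added.

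A change from almost none to more than 1 TPM was rare in the table. Of 5473 symbols under 0.2 TPM in all 3 siCtrl libraries, CCL5 was the 1 that reached 1 TPM in all 3 siNUDT5 libraries. No symbol did the reverse. FMNL2, a formin that builds actin filaments, came next, at 0.128, 0.199 and 0.0911 TPM in siCtrl and 1.11, 0.886 and 1.02 TPM in siNUDT5. Since CCL5 was chosen with these values known, the count describes its place in the table and tests nothing.

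None of the nearest genes around CCL5 on chromosome 17 rose from almost none to 1 TPM, though MMP28 moved that way at a far lower level. On the side of HEATR9 (listed as C17orf66), C17orf50 and GAS2L2, those 3 genes were at 0 in every library. TAF15, which encodes an RNA-binding protein, stood at 210 TPM in both groups (log2 change 0.00). The protease gene MMP28 was at 0 in siCtrl and at 0.115, 0.0867 and 0.194 TPM in siNUDT5. On the other side, RDM1, linked to DNA repair, fell from 5.90 to 3.07 TPM (log2 change -0.79, limma adjusted p = 0.0252). The next 4 genes, LYZL6 and the chemokines CCL16, CCL14 and CCL15, were at 0 in all 6 libraries.

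The genes whose values over the 6 libraries were most like those of CCL5, among 108 with a log2 change of at least 1, were CBX1, LIX1L, TRIB2, CXCL14 and MAPRE1. Their Pearson r with CCL5 was 0.998, 0.998, 0.998, 0.996 and 0.996 on the log2(TPM + 1) scale. The 6 points share the same libraries and fall into the 2 groups, so r mostly reads the distance between groups, and no p is given. CBX1, a heterochromatin protein, stood at 64.6, 75.3 and 64.1 TPM in siCtrl and 292, 274 and 268 TPM in siNUDT5. TRIB2, a pseudokinase, had a mean of 24.3 TPM in siCtrl and 78.4 TPM in siNUDT5. MAPRE1, which binds growing microtubule ends, had means of 142 and 404 TPM. All 3 were well expressed in siCtrl cells, unlike CCL5.

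CCL2, the monocyte attractant, did not separate the groups. It stood at 8.82, 11.6 and 8.97 TPM in siCtrl and 10.7, 10.7 and 9.96 TPM in siNUDT5, with a log2 change of 0.09 (SE 0.123). Its highest and its lowest value both lay in siCtrl. CXCL1 was at 0 in all 6 libraries, and CXCL2 was at 0 in all but siCtrl 3, where it was at 0.123 TPM, worth 1 read. For CXCL2, 3 reads, the limit that a count of 0 allows, would be worth 0.351 to 0.646 TPM in these libraries. CXCL1 and CXCL2 have near-identical stretches: 5.73% and 9.24% of the 50-base words in their longest annotated transcripts also occur in other genes, in both cases each other and CXCL3. For CCL5 that share was 15.96%, spread over 288 other genes, and for CCL2 it was 0. The sources used here do not say how reads shared between genes were treated.

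The promoters of the silent CXCL pair and of their relative CXCL3 are shown because all 3 carry the same stretch, in capitals, while CXCL3 alone of the 3 was above 1 TPM in any library, and that of IL6 because it holds a related one. CXCL3 stood at 1.12, 0.2503 and 2.58 TPM in siCtrl and 2.33, 2.31 and 1.52 TPM in siNUDT5, and its groups overlapped. Sequences are from RefSeq on GRCh38.p14, 5' to 3' on the gene's own strand. Capitals mark matches to a kappaB-like word, GGGNNNTTCC, searched on both strands. In these 3 genes the capitals hold 2 overlapping matches, 1 on each strand.
CXCL1: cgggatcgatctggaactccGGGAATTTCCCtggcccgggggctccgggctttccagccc
CXCL2: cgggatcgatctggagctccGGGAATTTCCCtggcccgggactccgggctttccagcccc
CXCL3: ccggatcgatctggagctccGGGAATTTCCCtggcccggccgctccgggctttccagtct
IL6: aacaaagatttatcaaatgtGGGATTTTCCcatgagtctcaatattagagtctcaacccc
The windows are chr4:73869294-73869353 on the plus strand for CXCL1, chr4:74099234-74099293 on the minus strand for CXCL2, chr4:74038729-74038788 on the minus strand for CXCL3 and chr7:22727107-22727166 on the plus strand for IL6. The matches begin 73 to 79 bases upstream of the start site. Of 35116 RefSeq promoters, 5.67% hold this word in the 250 bases upstream. In the last 100 bases before the start site, CXCL1 and CXCL2 were identical at 73 positions without gaps. A match is a description of letters and does not show binding. Of the 10 genes, 5 had an entry in the promoter table used: CXCL1, CXCL2, IL6, IL11 and GDF15.

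IL6, the best-known ligand of the family that uses IL6ST, was below 1 TPM in every library. IL6 was at 0.971, 0.474 and 0.271 TPM in siCtrl and 0.204, 0.514 and 0.633 TPM in siNUDT5, with complete overlap. The values are worth 3 to 16 reads a library, so a modest difference would not be detectable at this depth. It was below the filter of a mean of 1 TPM and entered no fit.

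IL11, a ligand with roles in bone and in platelet formation, stood at 5.98, 4.35 and 5.90 TPM in siCtrl and 7.71, 7.57 and 7.72 TPM in siNUDT5. The 3 siNUDT5 values lay within a narrow band, all above the highest siCtrl value, and the lowest value was that of siCtrl 2. The means were 5.41 ± 0.916 and 7.67 ± 0.0835 TPM (SD, n = 3), with a log2 change of 0.45 (SE 0.127). LIF, which holds stem cells undifferentiated in culture and acts on bone cells, stood at 47.2, 36.5 and 39.9 TPM in siCtrl and 37.6, 41.2 and 40.2 TPM in siNUDT5. Its groups overlapped and its log2 change was -0.05 (SE 0.109), with a sign that turned to 0.05 without siCtrl 1. So of the 3 ligands in this family, 1 was higher in siNUDT5 cells and the most abundant, LIF, showed no difference beyond the spread between libraries.

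The promoters of IL11 and of CXCL14, a chemokine that rose in siNUDT5 cells, are shown because both hold the word TGAGTCA about the same distance from the start site. Capitals mark a match to TGANTCA, an AP-1-like word found on either strand in 6.57% of the 35116 promoters.
IL11: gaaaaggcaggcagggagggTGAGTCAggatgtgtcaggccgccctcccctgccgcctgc
CXCL14: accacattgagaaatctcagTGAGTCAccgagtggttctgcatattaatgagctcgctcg
The windows are chr19:55370520-55370579 and chr5:135579044-135579103, both on the minus strand, and the words begin 96 and 92 bases upstream. CXCL8, which did not pass, also holds an AP-1-like word, 137 bases upstream, and CCL26, which rose, holds neither word in its 250 upstream bases. GDF15 holds neither as well.

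IL18, an interleukin of the IL1 family that is made as a precursor and released after cleavage by CASP1, was the most abundant of the 10. It stood at 750, 1003 and 792 TPM in siCtrl and 704, 598 and 630 TPM in siNUDT5. Each siNUDT5 value lay below each siCtrl value, and siCtrl 2 was the highest. The means were 848 ± 136 and 644 ± 54.4 TPM (SD, n = 3), and the log2 change was -0.39 (SE 0.117). CASP1 itself was low, at 0.385 to 0.515 TPM in siCtrl and 0.280 to 0.862 TPM in siNUDT5.

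CSF1, the growth factor of macrophages and osteoclasts, stood at 7.62, 5.88 and 7.44 TPM in siCtrl and 11.2, 10.3 and 10.6 TPM in siNUDT5. The groups were clearly apart and the ratio of means was 1.53. The log2 change was 0.55 (SE 0.118). GDF15, a distant member of the TGF-beta family induced by cell stress, stood at 3.22, 2.58 and 4.92 TPM in siCtrl and 3.78, 5.26 and 3.58 TPM in siNUDT5. Its groups overlapped, with a log2 change of 0.21 (SE 0.202) that was about the size of its error.

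Of the 10 genes, 7 had a mean of at least 1 TPM and entered the fit over 12236 genes. CCL5, CSF1 and IL11 passed an adjusted p of 0.05 in the higher direction and none passed in the lower. Over all tested genes 10.9% passed higher, 5.2% lower and 16.1% either way. Groups did not overlap for CCL5, CSF1 and IL11 in the higher direction and for IL18 in the lower, where 24.3% and 12.9% of all tested genes did the same. Because the 10 were picked with this contrast in view, nothing is read from those counts. The median log2 change of the 7 was 0.21, beside 0.05 for all tested genes. Leaving out siCtrl 3 or any 1 siNUDT5 library left CCL5 alone past the threshold, and leaving out siCtrl 1 or siCtrl 2 added IL18 as lower. CCL5 entered the fit only through its siNUDT5 values (mean 3.80 TPM, against 0.0557 TPM in siCtrl). It was also chosen on this contrast, so its passing in these fits is no support. With a filter at 5 TPM it was not tested, and CSF1 and IL11 passed.

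**Figure D2:**
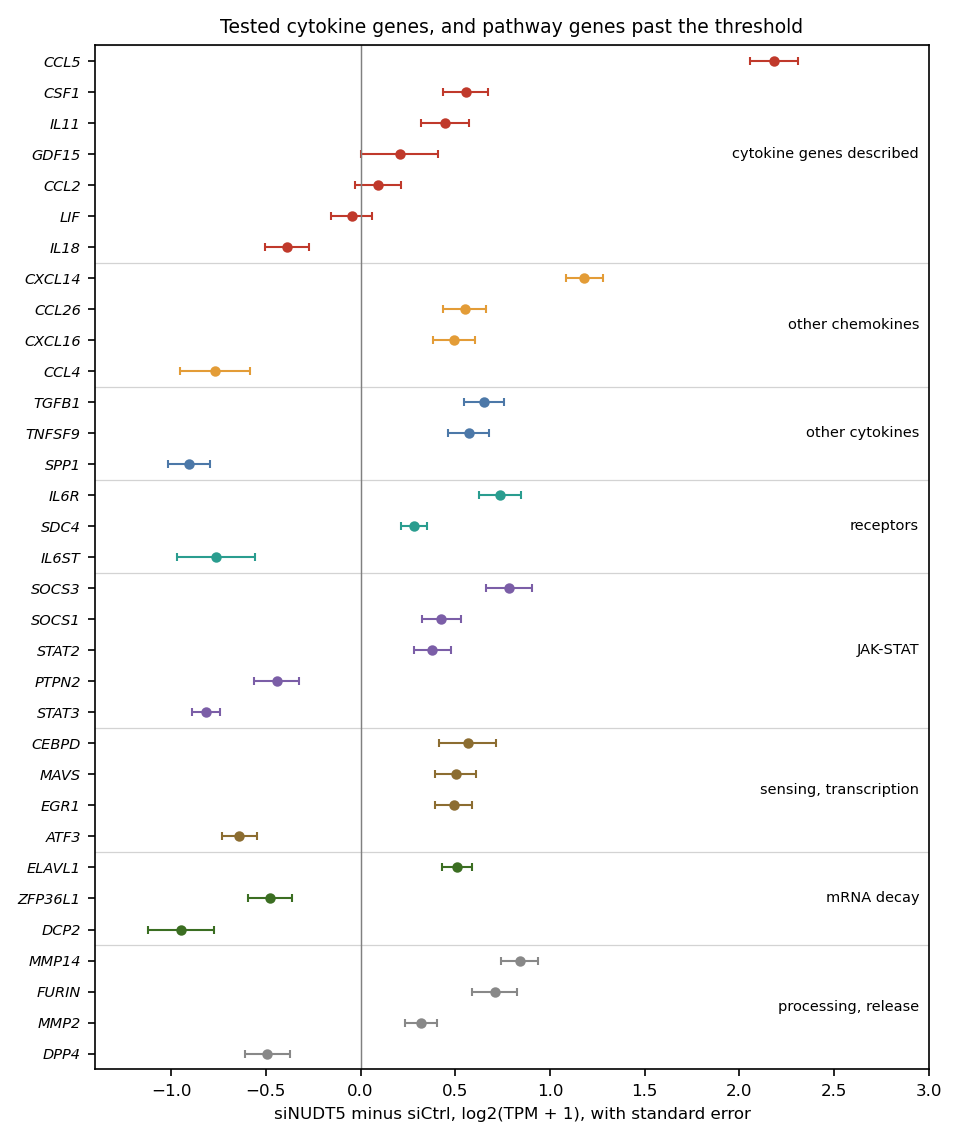
Log2 change (x axis, siNUDT5 minus siCtrl on the log2(TPM + 1) scale) with its standard error as a bar, for the tested genes of the 10 and for the other cytokine-pathway genes that passed the test. CCL5 lies farthest right at 2.18, CXCL14 at 1.18 is next, and DCP2 and SPP1 lie farthest left at -0.95 and -0.90.

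The AU-rich word TTATTTATT, an element that shortens the life of cytokine mRNAs, lies in the longest annotated 3' UTR (GENCODE 29) of 5 of the 10 genes. The word occurs 6 times in IL11, 5 in CXCL2, 3 in CXCL1, 2 in LIF and 1 time in GDF15. Sites of 29 bases are shown, with the word in capitals, because carriers include a gene that stood higher, one that did not differ and silent ones.
IL11: aagccagatcTTATTTATTtatttatttc
LIF: ctccgggcccTTATTTATTatttaaacat
GDF15: tataagtctgTTATTTATTattaatttat
CXCL2: agtcttctatTTATTTATTtatttattta
CCL5, CCL2, IL6, IL18 and CSF1 hold no copy of that word. The shorter AU-rich word ATTTA occurs 6 times in IL6, 4 in CSF1 and 1 time in CCL2, and is absent from CCL5 and IL18. Among 11487 tested genes with a 3' UTR that could be searched, 9.62% hold the longer word TTATTTATT. The median log2 change was 0.06 with TTATTTATT and 0.05 without it.

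Of 38 other chemokines, 17 were at 0 in all 6 libraries and 13 entered the fit, of which 3 rose, 1 fell and 9 did not pass. The lists described from here on were written with earlier results of these data known, and their counts stand beside the 10.9% and 5.2% of all tested genes. CXCL14, a chemokine of epithelia and connective tissue, stood at 12.4, 13.1 and 12.3 TPM in siCtrl and 33.0, 28.0 and 28.9 TPM in siNUDT5. Its rise of 1.18 (SE 0.0983, limma adjusted p = 0.000427) left a wide gap between the groups. CCL26, an eosinophil attractant, rose from 14.7 ± 1.58 to 21.9 ± 2.04 TPM (limma adjusted p = 0.0157). CXCL16, which is made as a membrane-bound form and shed, rose from 4.99 to 7.43 TPM (limma adjusted p = 0.0217). CCL4, an attractant of monocytes and T cells, went the other way, from 1.99, 1.24 and 1.96 TPM to 0.446, 1.01 and 0.378 TPM (log2 change -0.77, limma adjusted p = 0.0264). So CCL4 and CCL5, chemokines of the same CC class, had log2 changes of opposite sign. CCL4 rests on 2 to 11 reads a library, and 21.3% of its 50-base words also occur in CCL4L2. IL8 (CXCL8), the main neutrophil attractant of many tumour lines, stood at 6.78, 10.7 and 5.85 TPM in siCtrl and 13.0, 13.1 and 9.99 TPM in siNUDT5. The siCtrl 2 value overlapped the siNUDT5 range and IL8 did not pass (limma adjusted p = 0.0804).

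**Figure D3:**
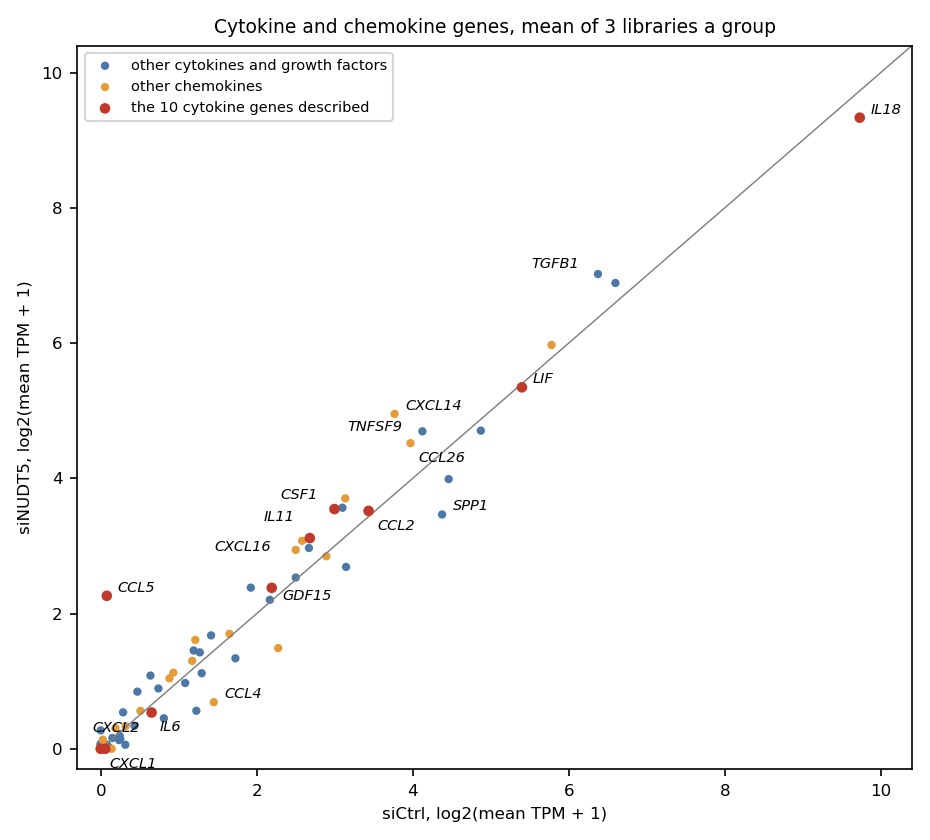
Mean level of each chemokine and cytokine gene in siCtrl (x axis) and siNUDT5 (y axis), both as log2(mean TPM + 1) over 3 libraries, with a line of equal level. CCL5 stands alone above the line at the left, CXCL14 lies above it at a higher level, SPP1 and CCL4 lie below it, and most genes lie near 0 on both axes.

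Of 48 other cytokines and secreted factors, 18 entered the fit, 2 rose, 1 fell and 15 did not pass. TGFB1, the growth factor stored in bone matrix, stood at 90.7, 70.6 and 84.8 TPM in siCtrl and 127, 135 and 124 TPM in siNUDT5. It rose by 0.65 (limma adjusted p = 0.00556), with every siNUDT5 value above every siCtrl value. TNFSF9, the 4-1BB ligand, rose from 16.4 to 24.9 TPM (limma adjusted p = 0.0105). SPP1, the bone matrix protein osteopontin, fell from 19.8 ± 2.47 to 10.04 ± 0.2998 TPM (limma adjusted p = 0.00208). The interferon IFNB1 was at 0 in all 6 libraries, TNF reached at most 0.0903 TPM and IL1B at most 0.0847 TPM. CLCF1, another IL6-family ligand, had means of 7.57 and 10.8 TPM but did not pass (limma adjusted p = 0.0580), and neither did IL32, with means of 21.0 and 14.9 TPM (limma adjusted p = 0.0511).

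Receptors and binding partners of the 10 ligands ranged from 0 in every library to 598 TPM for SDC4 in siNUDT5 3. GFRAL, the receptor of GDF15, was at 0 in all libraries. CCR1, CCR2, CCR3 and CSF1R stayed below 1 TPM in every library. Of 24 receptor genes, 10 entered the fit, 2 rose, 1 fell and 7 did not pass. IL6R, the ligand-binding chain for IL6, stood at 4.20, 4.499 and 4.04 TPM in siCtrl and 8.42, 6.97 and 7.86 TPM in siNUDT5 (log2 change 0.74, limma adjusted p = 0.00411). IL6ST, the shared signalling chain, stood at 66.2, 124 and 81.3 TPM in siCtrl and 56.9, 45.6 and 51.3 TPM in siNUDT5. IL6ST fell by 0.76 (limma adjusted p = 0.0386), and siCtrl 2 was by far its highest library. Without siCtrl 2 it fell by 0.51 (limma adjusted p = 0.00280), and without siCtrl 3 or any siNUDT5 library the adjusted p was 0.0809 to 0.132. LIFR, which pairs with IL6ST to bind LIF, had means of 27.3 and 39.02 TPM and did not pass (limma adjusted p = 0.0631). SDC4, a heparan sulphate proteoglycan that binds chemokines, rose from 475 to 577 TPM (limma adjusted p = 0.0289).

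Downstream of those receptors, 24 of 26 JAK-STAT genes entered the fit, 3 rose, 2 fell and 19 did not pass. STAT3, the main transcription factor of the IL6 family, stood at 84.5, 80.3 and 82.2 TPM in siCtrl and 46.5, 46.5 and 46.0 TPM in siNUDT5. The libraries of each group lay close together and STAT3 fell by 0.82 (SE 0.0752, limma adjusted p = 0.000699). SOCS3, a STAT3 target that inhibits IL6ST signalling, stood at 19.0, 15.1 and 15.3 TPM in siCtrl and 32.5, 27.4 and 27.1 TPM in siNUDT5, a rise of 0.78 (limma adjusted p = 0.00500). SOCS1, the related inhibitor of interferon signalling, rose from 4.05 to 5.78 TPM (limma adjusted p = 0.0281) and STAT2, of the interferon pathway, from 20.5 to 26.9 TPM (limma adjusted p = 0.0312). PTPN2, a phosphatase that dampens STAT signalling, fell from 50.4 to 36.7 TPM (limma adjusted p = 0.0367). JAK1 overlapped between groups and did not pass. Along this route the ligand LIF did not differ beyond its spread. The ligand IL11 was higher, but lost its call in 9 of the 14 alternative settings. The factor STAT3 fell and the inhibitor SOCS3 rose. The chain IL6ST fell, but lost its call in 6 of the 14 alternative settings. IL6R, the chain for IL6, rose, while IL6 itself was below 1 TPM in every library. LIFR, the chain for LIF, did not pass. Neither did IL11RA, the chain for IL11 (log2 change 0.08, limma adjusted p = 0.830). IL11RA stood at 2.07, 0.838 and 2.10 TPM in siCtrl and 1.85, 2.03 and 1.41 TPM in siNUDT5, with overlap.

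**Figure D4:**
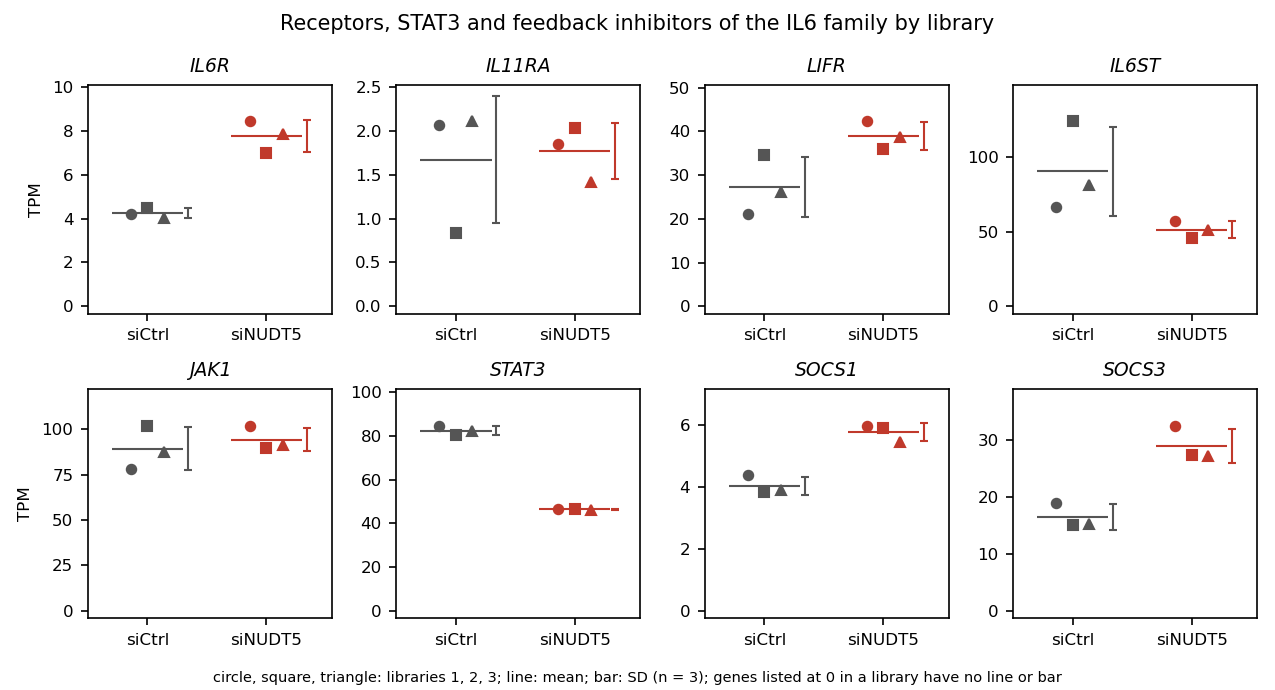
TPM (y axis, each panel with its own scale that includes 0) of genes of the IL6 family route in the 3 siCtrl and 3 siNUDT5 libraries. Points are libraries, lines are means and bars are SDs (n = 3). STAT3 and IL6ST are lower and IL6R and SOCS3 higher in every siNUDT5 library, and siCtrl 2 is the high point of IL6ST at 124 TPM.

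Among sensors and transcription factors of cytokine genes, 27 of 30 entered the fit, 3 rose, 1 fell and 23 did not pass. The NF-kappaB subunit RELA had means of 64.1 and 67.1 TPM and NFKB1 36.1 and 34.6 TPM, and neither passed. IRF1 and IRF3, which drive CCL5 in infected cells, had means of 8.67 and 8.94 TPM and of 33.9 and 40.3 TPM and did not pass. IRF7 was at 0 in all 6 libraries. MAVS, the adaptor of the RNA sensors, rose from 15.2 to 21.9 TPM (limma adjusted p = 0.0170), while its sensor IFIH1 had means of 4.39 and 2.88 TPM and did not pass (limma adjusted p = 0.0521). EGR1, an early-response factor, rose from 53.0 to 74.9 TPM (limma adjusted p = 0.0119) and CEBPD, a factor of acute-phase genes, from 1.31 to 2.40 TPM (limma adjusted p = 0.0381). ATF3, a stress-induced factor that represses several cytokine genes, fell from 46.8 ± 2.76 to 29.7 ± 2.03 TPM (limma adjusted p = 0.00373).

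Of 19 genes of cytokine mRNA decay and stability, all entered the fit, 1 rose, 2 fell and 16 did not pass. ELAVL1 (HuR), which binds AU-rich RNA and stabilises it, rose from 46.8 ± 2.02 to 67.0 ± 0.705 TPM (limma adjusted p = 0.00476). ZFP36L1, which binds the same elements and promotes decay, fell from 200 ± 29.7 to 142 ± 11.5 TPM (limma adjusted p = 0.0266). DCP2, the decapping enzyme, stood at 32.2, 51.4 and 35.8 TPM in siCtrl and 22.7, 17.7 and 19.1 TPM in siNUDT5, a fall of 0.95 on the log2 scale (limma adjusted p = 0.00911), with siCtrl 2 the highest. ZFP36 (tristetraprolin) was 9.80 TPM in siCtrl and 10.2 TPM in siNUDT5 and did not pass.

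Of 18 genes for processing and release, 14 entered the fit, 3 rose, 1 fell and 10 did not pass. FURIN, the convertase that matures TGFB1, stood at 79.8, 58.6 and 74.3 TPM in siCtrl and 116, 121 and 109 TPM in siNUDT5 (log2 change 0.71, limma adjusted p = 0.00667). MMP14, a membrane metalloprotease, rose from 53.5 ± 5.82 to 96.2 ± 4.69 TPM (limma adjusted p = 0.00178), and MMP2, which MMP14 activates, from 65.6 to 82.1 TPM (limma adjusted p = 0.0380). DPP4, which trims the ends of CCL5 and other chemokines, fell from 4.47 to 2.88 TPM (limma adjusted p = 0.0276). CASP4, an inflammatory caspase, had means of 59.3 and 53.4 TPM and did not pass.

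Over the 7 lists 125 of 203 genes entered the fit, 17 (13.6%) rose and 9 (7.2%) fell, near the shares of all tested genes, and the median log2 change was 0.09. Of these 26 calls, 9 passed in every one of the 14 alternative settings that tested them: CXCL14, SPP1, TGFB1, IL6R, STAT3, SOCS3, ATF3, FURIN and MMP14. Without siCtrl 2 there were 35 higher and 16 lower calls and all 26 still passed. Without siCtrl 1 there were 20 higher and 14 lower calls and 24 of the 26 passed. Leaving out siCtrl 3, siNUDT5 1, siNUDT5 2 or siNUDT5 3 kept 14, 12, 13 and 12 of the 26, with 10, 8, 8 and 11 higher and 6, 4, 5 and 3 lower calls in all. CCL26, CCL4, CXCL16, SOCS1, STAT2, PTPN2, MAVS, CEBPD, IL6ST, SDC4, DPP4, MMP2, EGR1, TNFSF9, ZFP36L1 and DCP2 each lost the call in at least 1 of those fits, and ELAVL1 lost it with the replicate number as a block. Median-ratio scaling kept 22 of the 26, without CEBPD, MMP2, SDC4 and STAT2.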

How the data were processed

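Stranded mRNA libraries of 3 siCtrl and 3 siNUDT5 samples were grouped by title. The authors deposited TPM for each of 19977 gene symbols, each library summing to 1000000. Per the submitters' processing notes the build was hg19 and the tools were STAR 2.7.3a and DESeq2 1.22.1, without roles. The annotation, the computation of TPM and the use of strand or shared reads are not stated in the sources used here. The 10 genes and all lists were chosen with earlier results of these data known.

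The fit used limma 3.58.1 in R 4.3.3 (lmFit, eBayes with a trend) on log2(TPM + 1) for the 12236 genes whose mean reached 1 TPM, two-sided, siNUDT5 minus siCtrl, Benjamini-Hochberg adjusted p under 0.05, and was tested on simulated data. Log2 changes on this scale understate those of low genes. Named genes were the 10, NUDT5, up to 6 per list past the threshold, the 5 most like CCL5, genes off in siCtrl and on in siNUDT5, and 5 neighbours a side in RefSeq order. FMNL2 and genes named as not passing were chosen after their values were seen. Relative depth and reads came from value steps (tolerance 0.03 reads), and total depth is unknown. GRCh38.p14 RefSeq promoters and GENCODE 29 transcripts were matched by symbol and are not of the files' build. Alternatives tried were a pseudocount of 0.1 or 5, no filter or one at 5 TPM, median-ratio scaling, quantile normalization, no trend, a replicate block, and leaving out each library. Python 3.11.15, numpy 2.4.6, pandas 2.3.3, scipy 1.17.1 and matplotlib 3.10.9 were used.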

Additional observations from a re-analysis of the deposited data

How the results depend on the processing

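The count of all genes past the threshold was 1970, and 764 to 3804 when 1 library was left out, highest without siCtrl 2. Among the 10 genes the leave-one-out counts were 1 to 3 higher and 0 to 1 lower, and among pathway genes 8 to 35 higher and 3 to 16 lower. Median-ratio scaling gave 1 lower gene among the 10, IL18. The higher and lower counts of all genes were 1334 and 636, against 1040 and 895 with median-ratio scaling and 1018 and 965 with quantile normalization. The log2 change of LIF ranged from -0.128 to 0.0515 when 1 library was left out, the latter without siCtrl 1. Over all alternatives the member values kept direction and side of the threshold in 78 cases, lost the call in 14, gained it in 3 and turned in 1. IL11 lost it with a pseudocount of 0.1, no filter, either scaling and the block. The cause was not tested.

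With the replicate number as a block, 739 genes passed, 1 of the 10 (CCL5, higher), and 6 pathway genes higher and 5 lower. Same-numbered libraries had correlations of deviations from their group means of -0.43, -0.54 and -0.04, and siCtrl 1 was closest to siNUDT5 2. Deviations around a mean of 3 libraries depend on each other, and siCtrl 2 stood apart. These correlations therefore cannot decide whether the numbers pair the samples. Depth limits what can be said of low genes such as IL6, CXCL2 and CCL4, at 16 reads or fewer a library.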

Other observations

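Some 3' UTR words were picked in an earlier analysis of the same log2 changes, so the values here are no independent support for them. Genes whose longest 3' UTR holds AAGACTT or AGACTTA (24.2% of 11487) had a median log2 change of -0.01, against 0.07 for the others. None of the 10 cytokine genes holds either word. They occur in 4 of the 9 pathway genes that fell, IL6ST, STAT3, PTPN2 and DCP2, and in 2 of the 17 that rose, EGR1 and ELAVL1. TRIB2, which stood higher and is among the 5 genes most like CCL5, holds one too. Genes with GATTAAC (6.36%) had a median of 0.13, against 0.04 for the others. That word lies in the 3' UTR of CXCL1, which was silent, and not in that of CCL5. Of the 5 genes most like CCL5 over the libraries, CBX1, LIX1L and MAPRE1 hold it, as do 2 of the 17 pathway genes that rose, IL6R and ELAVL1, and 0 of the 9 that fell. Carriers of any of these words also have longer 3' UTRs, with medians of 3122 bases against 1360 for the first pair of words and 3596.5 against 1585 for GATTAAC.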
